A study of Mus musculus with 12 samples.

Results

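Mucins are long glycoproteins that coat epithelia, and trefoil factors are small secreted peptides that are packed and released with them. The 9 genes described here across all tumors of the series were chosen by name, from general knowledge of pancreatic and gastric-type mucus. The rule uses no measured value, but earlier results of these data were known when the genes were chosen. The 9 genes were the membrane mucins Muc1, Muc4 and Muc16, the gel-forming mucins Muc5ac and Muc6, the trefoil factors Tff1, Tff2 and Tff3, and Agr2. Agr2 is a disulfide isomerase of the endoplasmic reticulum that helps to fold mucins. Of these 9 genes, 8 had a row among the 22630 rows of the expression table and 7 had any count. Muc16 had no row and was not analysed here, and Tff1 stood in the table at 0.

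A membrane mucin is anchored in the apical surface of the cell and can be shed, whereas a gel-forming mucin is stored in granules and swells into mucus after release. Trefoil factors carry the looped trefoil domain, are secreted by mucous cells of the stomach and gut, and take part in the repair of injured epithelium. The normal pancreatic duct makes little gastric-type mucus, and the duct-like precursor lesions of pancreatic cancer, PanINs, are known for it.

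RNA was sequenced from 12 subcutaneous tumors of the mouse pancreatic cancer line KCip53-1, which formed 3 groups of 4 named no-dox, plus-dox and off-dox. The line came from a mouse whose alleles included Ptf1a-Cre, TREp53R270H and R26rtTa/rtTa, in which Cre is driven in the pancreatic epithelium and doxycycline (dox) switches on the p53R270H transgene, and all groups carry the alleles of this line. The hosts were immunodeficient NSG mice of 8 to 10 weeks, which kept their own stroma and myeloid cells, and each tumor was started from 500000 cells. By the labels and the methods of the study, plus-dox hosts drank dox at 0.2 g/l in 5% sucrose for 36 days. Off-dox hosts drank it for 33 days followed by 3 days without, and no-dox hosts received no dox. The methods name sucrose only with dox and do not say what no-dox hosts drank. The comparison of plus-dox with no-dox tumors asked what dox with its transgene changed, and off-dox tumors asked what followed its withdrawal. Dox itself and the transgene cannot be told apart in these 12 tumors, the line is a single one, and each mouse bore 2 tumors without any record of which tumors shared a mouse, which would make the p-values too small where they did.

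Gene-level totals per tumor ran from 19845923 to 33137609 reads, and genes took 88.4% to 89.4% of mapped reads in the no-dox group, 82.2% to 87.1% in the plus-dox group and 81.1% to 85.8% in the off-dox group. Trp53, which reads of the transgene also enter where they match the gene, was at 40.1 to 57.4 RPKM (reads scaled to exonic length and to mapped reads) in no-dox, 40.4 to 56.0 in plus-dox and 41.6 to 45.4 in off-dox tumors. The groups overlapped, so the gene-level values do not check which tumors expressed the transgene. All 10 epithelial markers listed had a row and none was at 0 throughout the 12 tumors. Of 8 acinar genes, Cela2a, Prss1 and Amy2a5 were at 0 in all 12 tumors, while Cela1 was at 90.4 ± 24.1 RPKM in no-dox tumors (SD, n = 4), and the 8 summed to 58.4 to 117 RPKM in no-dox, 6.75 to 74.2 in plus-dox and 8.41 to 95.6 in off-dox tumors. Plus-dox tumor 2 and off-dox tumor 4 stood apart on the leading principal component of 14548 genes, at 101.9 and 66.9 against -43.5 to 6.2 in the other 10 tumors. In plus-dox tumor 2 the epithelial adhesion gene Epcam was at 7.76 RPKM, against 133 to 159 in the rest of its group, and in off-dox tumor 4 it was at 40.9. In the same plus-dox tumor the adherens junction gene Cdh1 was at 22.1 RPKM, and Vim, a filament gene of mesenchymal cells, was at 1756 RPKM, against 746 to 860 in the rest of the group. Results that rest on this pair of tumors are therefore given with and without them. In whole tumors, fewer cells of a type and less RNA per cell cannot be told apart.

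The trefoil genes lie side by side on chromosome 17 of the mm9 genome, all on the minus strand. Tff3 spans chr17:31262251-31266556, Tff2 spans chr17:31278007-31281227 and Tff1 spans chr17:31298341-31301998, with 11450 bases between Tff3 and Tff2. Each trefoil domain is encoded largely by its own internal exon, and the exons are printed here because the measured values of the 3 genes depend on whether reads of 50 bases can tell them apart. Tff2 has 2 such exons and Tff1 and Tff3 have 1 each. Capitals mark the longest run shared with exon 2 of Tff2, and in exon 2 of Tff2 itself the run shared with Tff3.
Tff1 exon 2, chr17:31299600-31299752, minus strand, 153 bases: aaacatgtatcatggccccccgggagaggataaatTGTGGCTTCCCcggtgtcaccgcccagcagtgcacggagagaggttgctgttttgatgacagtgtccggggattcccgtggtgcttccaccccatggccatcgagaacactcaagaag
Tff2 exon 2, chr17:31280059-31280208, minus strand, 150 bases: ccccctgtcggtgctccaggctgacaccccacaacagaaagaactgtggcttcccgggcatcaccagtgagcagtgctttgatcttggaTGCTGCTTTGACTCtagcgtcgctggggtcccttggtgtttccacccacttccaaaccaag
Tff2 exon 3, chr17:31279147-31279293, minus strand, 147 bases: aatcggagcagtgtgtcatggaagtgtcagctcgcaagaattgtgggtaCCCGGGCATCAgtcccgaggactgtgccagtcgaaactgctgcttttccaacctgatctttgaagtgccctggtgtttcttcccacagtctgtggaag
Tff3 exon 2, chr17:31264310-31264456, minus strand, 147 bases: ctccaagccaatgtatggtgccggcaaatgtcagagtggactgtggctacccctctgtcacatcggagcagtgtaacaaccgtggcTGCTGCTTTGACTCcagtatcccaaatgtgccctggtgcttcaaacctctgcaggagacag

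The longest identical run between any pair of these exons was 14 bases, between exon 2 of Tff2 and exon 2 of Tff3, and the shortest was 8. All of the 388 exonic windows of 50 bases in Tff2 and of the 346 in Tff3 occurred in 1 place of the genome. Tff1 differed from both. None of its 331 windows occurred in 1 place, because mm9 holds a second copy at chr5:143285577-143289234, inside Tnrc18, that matches the chromosome 17 locus over all 3658 bases with 0 mismatches. The identical stretch runs on for 8928 bases before and 8661 after the gene, 21247 bases in all. The table listed Tff1 in 2 rows, 1 per copy, both with 0 counts in all 12 tumors.

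How reads with several matches were treated is not given in the sources used here. Of the 58 gene names with more than 1 row, 43 (74.1%) had 0 counts in all rows and tumors, against 3018 of 22497 rows (13.4%) with a name of their own. A count of 0 allows up to 3 counts, or 0.169 to 0.263 RPKM of Tff1 across tumors, but this limit covers counting error only and applies only if reads with 2 matches were counted. The Tff1 values were therefore read neither as absence nor as a level.

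**Figure D1:**
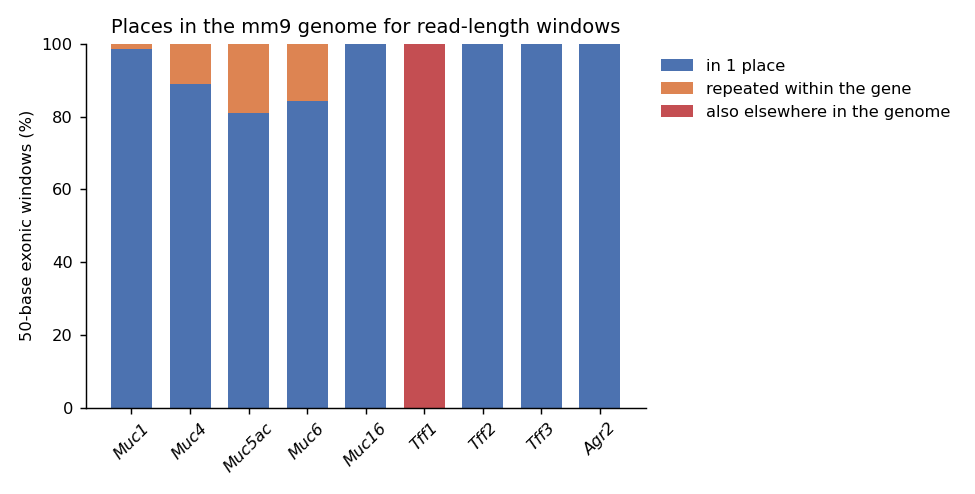
Share of 50-base windows within single annotated exons (vertical axis, percent) that occur in 1 place of the mm9 genome, are repeated only within the gene, or occur elsewhere too, for the 9 genes. Tff1 stands alone with all of its windows found elsewhere, while Tff2, Tff3 and Agr2 are at 100% in 1 place and the tandem-repeat mucins Muc5ac and Muc6 are at 81.0% and 84.2%.

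In the mucins the repeats lay inside the genes. Muc1 had 98.6% of its windows in 1 place, Muc4 89.0%, Muc6 84.2% and Muc5ac 81.0%, and the remainder occurred again only within the same gene. Mucin genes encode serine- and threonine-rich tandem repeats that carry the sugar chains. Whether the repeated windows lay in them was not checked. Muc4, at chr16:32735972-32782476, also overlapped Muc20, which is on the opposite strand, over 4972 bases. The libraries did not keep strand and the authors counted over exonic spans that were unambiguous, so how the overlap was handled affects Muc4 and Muc20.

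Tff2 was the highest of the 7 measured genes, ranking 1136th of 22630 rows by mean RPKM, followed by Muc1 at 1244th, Agr2 at 2680th, Tff3 at 4371st and Muc4 at 10272nd. These ranks are of levels per kilobase averaged over all 12 tumors, and the order differed between groups, since in off-dox tumors Muc1 had the higher mean, at 56.7 RPKM against 26.3 for Tff2 and 24.3 for Agr2. Muc5ac, the main gel-forming mucin of gastric surface cells, and Muc6, that of gastric glands, were close to 0 in all tumors, with means over the 12 tumors of 0.105 and 0.0470 RPKM.

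Tff2, the trefoil peptide of mucous neck cells, was at 136.8, 105.7, 49.1 and 133.9 RPKM in no-dox tumors, in the order of their numbers, which holds for all such values. In plus-dox tumors it was at 92.1, 1.18, 30.7 and 73.9 RPKM, and in off-dox tumors at 42.6, 20.9, 39.6 and 1.96 RPKM. All 4 off-dox tumors lay below all 4 no-dox tumors, while plus-dox tumors overlapped both groups. The means were 106.3 ± 40.7 in no-dox, 49.5 ± 41.2 in plus-dox and 26.3 ± 18.8 RPKM in off-dox tumors (SD, n = 4 each).

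Tff3, the trefoil peptide of intestinal goblet cells, was at 39.8, 38.6, 22.8 and 32.7 RPKM in no-dox tumors. It was at 15.99, 0.200, 4.99 and 17.4 RPKM in plus-dox tumors and at 11.9, 5.31, 8.98 and 0.218 RPKM in off-dox tumors. Every tumor that had received dox was below every no-dox tumor, and the plus-dox and off-dox groups overlapped. The means were 33.5 ± 7.75, 9.65 ± 8.39 and 6.60 ± 5.04 RPKM in the same order (SD, n = 4 each). The lowest values, in plus-dox tumor 2 and off-dox tumor 4, rested on 3 counts each, which give 95% exact Poisson intervals of 0.0412 to 0.584 and 0.0450 to 0.638 RPKM for counting error only. Both intervals lay below the next tumor of either group.

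Agr2, at chr12:36719512-36730668, was at 46.2, 45.8, 61.2 and 21.3 RPKM in no-dox tumors. It was at 23.3, 0.402, 11.8 and 23.1 RPKM in plus-dox tumors and at 51.6, 17.5, 24.99 and 3.045 RPKM in off-dox tumors. Plus-dox tumors were below no-dox tumors except for an overlap at no-dox tumor 4, and off-dox tumors spread over both other groups. The means were 43.6 ± 16.5, 14.7 ± 10.9 and 24.3 ± 20.4 RPKM (SD, n = 4 each).

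Muc1, the membrane mucin of ductal and many other glandular cells, at chr3:89032974-89037291, was at 36.6, 138.4, 26.2 and 68.7 RPKM in no-dox tumors. It was at 64.6, 1.45, 66.5 and 39.1 RPKM in plus-dox tumors and at 94.7, 83.2, 35.2 and 13.8 RPKM in off-dox tumors. The 3 groups overlapped throughout, and the highest no-dox tumor was several times the lowest. The means were 67.5 ± 50.6, 42.9 ± 30.3 and 56.7 ± 38.5 RPKM (SD, n = 4 each).

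Muc4, a membrane mucin that binds the receptor Erbb2 and is known as absent from normal pancreas and present in pancreatic cancer, was at 1.84, 5.97, 1.31 and 4.03 RPKM in no-dox tumors. It was at 2.24, 0.0532, 5.51 and 2.55 RPKM in plus-dox tumors and at 7.44, 7.08, 2.07 and 1.38 RPKM in off-dox tumors. The groups overlapped here too, with means of 3.29 ± 2.14, 2.59 ± 2.24 and 4.49 ± 3.21 RPKM (SD, n = 4 each).

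**Figure D2:**
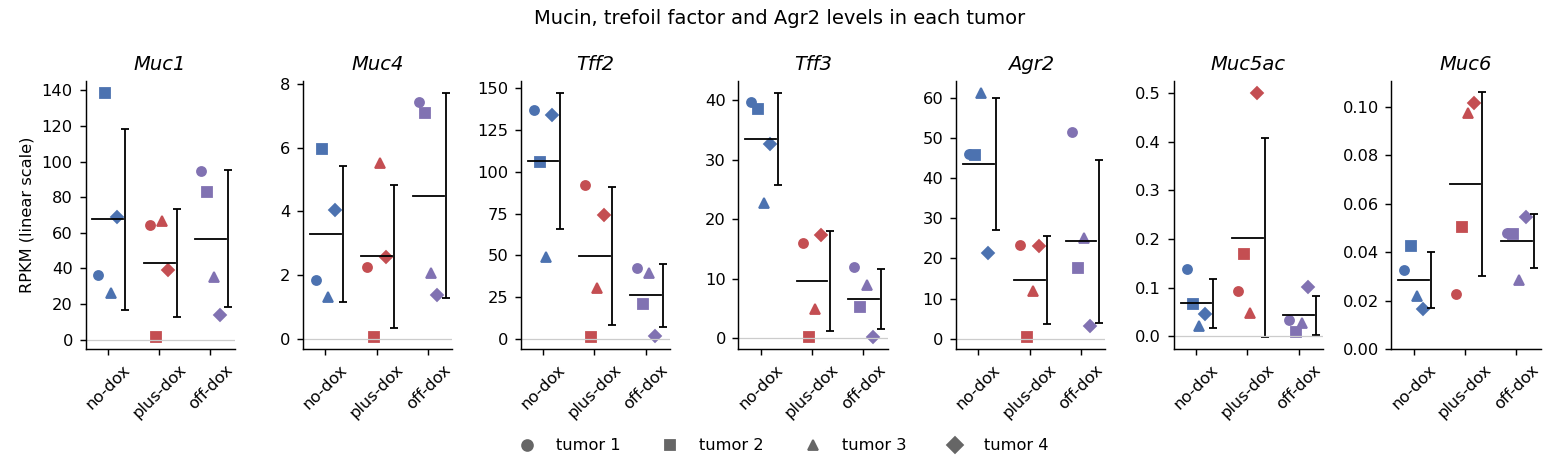
RPKM of 7 genes (linear vertical axes that differ between panels) in no-dox, plus-dox and off-dox tumors, with a symbol for each tumor number, a line at the group mean and a bar of 1 SD (n = 4). Tff3 is the gene for which all no-dox tumors lie above all others, from 22.8 RPKM upwards, while Muc1 and Muc4 overlap in all groups and Muc5ac and Muc6 stay near 0.

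The gel-forming mucins neighbour each other on chromosome 7, with Muc6 at chr7:148819948-148841207 and Muc5ac at chr7:148974916-149005040. Muc5ac was at 0.139, 0.0664, 0.0207 and 0.0448 RPKM in no-dox tumors. It was at 0.0936, 0.169, 0.0480 and 0.499 RPKM in plus-dox tumors and at 0.0335, 0.00970, 0.0274 and 0.102 RPKM in off-dox tumors. Plus-dox tumor 4 was the highest, with 108 counts over an exonic length of 8505 bases. Muc6 ranged from 0.0165 to 0.0427 RPKM in no-dox, from 0.0229 to 0.102 in plus-dox and from 0.0286 to 0.0546 in off-dox tumors. The groups overlapped for both genes. A call required a mean over 0.25 RPKM across the pair of groups, which neither gene reached in any comparison, so neither could be called whatever its fold change, although Muc5ac in plus-dox tumor 4 alone was above that level.

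Group differences were tested with edgeR's quasi-likelihood test over 17561 genes, and a call needed a length over 250 bp, a mean above 0.25 RPKM across the pair of groups, more than a 1.5-fold change and a Benjamini-Hochberg adjusted p under 0.1. Log2 fold changes and their SE are from this fit, and a negative value means lower in the group named first. Exact permutation p-values are two-sided, compare mean RPKM of 4 against 4 tumors over 70 arrangements and cannot go below 0.029.

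Between plus-dox and no-dox tumors, none of the 7 genes was called by edgeR, and neither was any of the 17561 genes tested (0%). At an unadjusted p under 0.05 edgeR listed 2400 genes (13.7%, with 8% higher and 5.67% lower), among them 1 of the 7, Muc6, on the higher side. DESeq2 called 128 genes, or 90 with moderated fold changes, and limma-voom called 112, with none of the 7 in any of these lists. Of the 7 fold changes, 5 were negative, with a median of -0.63 beside 0.013 over all genes. The trefoil factors and Agr2 had the largest differences towards lower values.

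Tff3 was 3.51-fold lower by the edgeR fit, which is its log2 fold change of -1.81 ± 0.94 (SE, n = 4 and 4, edgeR adjusted p = 0.41). Of the 7, it alone had plus-dox values wholly below the no-dox values (exact permutation p = 0.029), a separation that 3.46% of all genes showed, while 4.3% were wholly higher. Agr2 had a log2 fold change of -1.59 ± 0.88 (edgeR adjusted p = 0.43). Its exact permutation p was 0.086. Tff2 was at -1.12 ± 0.93 (edgeR adjusted p = 0.58), with an exact permutation p of 0.11.

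The membrane mucins differed by less than the spread between tumors. Muc1 had a log2 fold change of -0.63 ± 0.87 (edgeR adjusted p = 0.74) and Muc4 had -0.31 ± 0.90 (edgeR adjusted p = 0.89). Their exact permutation p-values were 0.54 and 0.69. For Muc4 the direction rested on plus-dox tumor 2, since without it the log2 fold change was 0.10, and it also turned without no-dox tumor 2, at 0.12. The gel-forming mucins were on the other side of 0, Muc5ac at 1.57 ± 0.79 (edgeR adjusted p = 0.40) and Muc6 at 1.25 ± 0.50 (edgeR adjusted p = 0.34). Muc5ac stood at 0.64 without plus-dox tumor 4.

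Without plus-dox tumor 2 and off-dox tumor 4, Tff3 was at -1.41 ± 0.38, Agr2 at -1.18 ± 0.41 and Tff2 at -0.71 ± 0.39 on the log2 scale between plus-dox and no-dox tumors. None was called, with edgeR adjusted p of 0.38, 0.38 and 0.46, and none of the 17329 genes then tested was called either (0%). The fold changes were smaller and their errors less than those with all 12 tumors.

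Between off-dox and no-dox tumors, none of the 7 genes was called, against 235 of all genes (1.34%), of which 181 were higher (1.03%) and 54 lower (0.307%). At an unadjusted p under 0.05 edgeR listed 3586 genes (20.4%, with 9.48% lower), and Tff3 was the 1 of the 7 among them. Tff3 was 5.00-fold lower by the edgeR fit, which is its log2 fold change of -2.32 ± 0.96 (SE, n = 4 and 4, edgeR adjusted p = 0.20). Tff2 was 4.00-fold lower by the same fit, a log2 fold change of -2.001 ± 0.96 (edgeR adjusted p = 0.26). Both had an exact permutation p of 0.029, since all off-dox tumors were below all no-dox tumors, as held for 6.4% of all genes.

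Whether these trefoil factors were called turned on the pair of tumors that stood apart. Plus-dox tumor 2 is not part of this comparison and enters it through the spread, which the 1 fit estimates over all 3 groups. With only plus-dox tumor 2 left out, the edgeR adjusted p was 0.10 for Tff3 and 0.12 for Tff2. It was 0.24 and 0.34 with only off-dox tumor 4 left out, and 0.16 and 0.19 with the 8 tumors of the pair of groups alone. Without plus-dox tumor 2 and off-dox tumor 4, Tff3 was at -1.91 ± 0.39 (edgeR adjusted p = 0.071) and Tff2 at -1.61 ± 0.41 (edgeR adjusted p = 0.077). Both were then called lower, beside 471 genes called in all (2.72%) and 90 called lower (0.519%) of 17329. The fold changes were smaller than with all tumors and so were their errors. With all 12 tumors, limma-voom with tumor weights called Tff3 (log2 fold change -2.80, adjusted p = 0.089) among 641 genes, and DESeq2 called neither. Over all alternatives the adjusted p ran from 0.071 to 0.36 for Tff3 and from 0.077 to 0.42 for Tff2.

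Agr2 had a log2 fold change of -0.83 ± 0.86 between off-dox and no-dox tumors (edgeR adjusted p = 0.60) and an exact permutation p of 0.26. The value rested on single tumors, at -1.50 without off-dox tumor 1 and -0.46 without off-dox tumor 4. Muc1 was at -0.22 ± 0.87 (edgeR adjusted p = 0.90) and Muc4 at 0.47 ± 0.90 (edgeR adjusted p = 0.79). Their exact permutation p-values were 0.83 and 0.54. For Muc1 the direction rested on single tumors, at 0.37 without no-dox tumor 2 and 0.098 without off-dox tumor 4. Muc5ac at -0.55 ± 0.82 and Muc6 at 0.66 ± 0.51 had edgeR adjusted p of 0.73 and 0.48, and Muc5ac stood at 0.042 without no-dox tumor 1.

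Tumors after 3 days off dox were not separated from plus-dox tumors for any of the 7 genes. Between off-dox and plus-dox tumors none was called, all adjusted p-values were 1 by edgeR, and 0 of 17561 genes were called (0%), with 537 (3.06%, and 1.81% on the lower side) at an unadjusted p under 0.05. DESeq2 called 6 genes, or 4 with moderated fold changes, and limma-voom called 0. Tff2 was at -0.89 ± 0.93 and Tff3 at -0.51 ± 0.94 on the log2 scale, while Agr2 was at 0.75 ± 0.87, Muc1 at 0.41 ± 0.87 and Muc4 at 0.78 ± 0.91. Muc5ac was at -2.12 ± 0.82, with an unadjusted p of 0.024 by edgeR and an exact permutation p of 0.086, and it was the 1 gene of the 7 under 0.05. It stood at -1.20 without plus-dox tumor 4 and at -3.04 without off-dox tumor 4. Muc6 was at -0.58 ± 0.49. In none of the 7 were the groups free of overlap, as they were for 0.552% of all genes towards higher and 0.934% towards lower values. The off-dox and plus-dox comparisons with the no-dox group share the same 4 no-dox tumors.

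**Figure D3:**
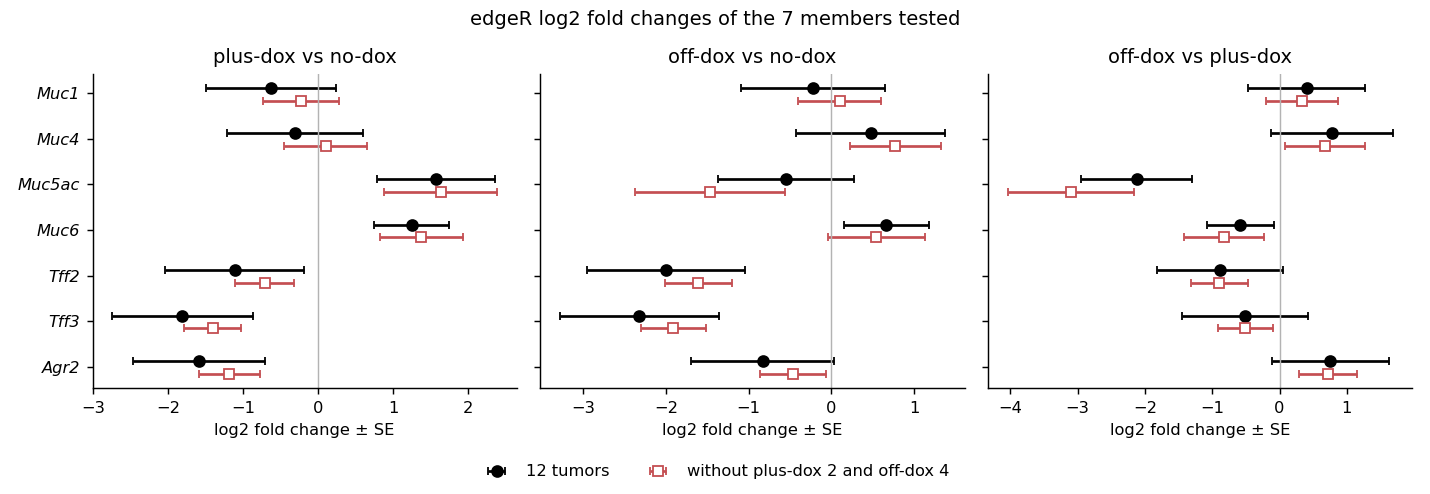
Log2 fold changes (horizontal axes) of 7 genes with SE bars from edgeR, in 3 comparisons, for all 12 tumors (black circles) and without plus-dox tumor 2 and off-dox tumor 4 (open red squares). Tff2 and Tff3 lie to the left of 0 against no-dox tumors, at -2.001 and -2.32 in off-dox tumors, with bars that shorten without the 2 tumors, while the bars of Muc1 and Muc4 with all 12 tumors cross 0 there.

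Tumor by tumor, Muc1 and Muc4 formed one pair and Tff2 and Tff3 another. In plus-dox tumor 2, Tff2, Tff3, Agr2, Muc1 and Muc4 all had their lowest value of the 12 tumors, and in off-dox tumor 4 Tff2, Tff3, Agr2 and Muc1 had their second lowest. Outside these tumors Muc1 and Muc4 varied together, with r = 0.89 (Spearman's rho = 0.89) of log2 CPM (counts scaled to library size) over 10 tumors and r = 0.89 over the 8 tumors nearest the median of Muc1. Tff2 and Tff3 also varied together, with r = 0.91 (rho = 0.90) over 10 tumors and r = 0.86 over the 8 tumors nearest the median of Tff2. Between the pairs r was negative over the same 10 tumors, at -0.06 for Muc1 and Tff2, -0.11 for Muc1 and Tff3, -0.37 for Muc4 and Tff2 and -0.40 for Muc4 and Tff3. Over the 8 tumors nearest the median of Muc1, Muc1 and Tff2 had r = -0.39. Over all 12 tumors the values for Muc1 and Tff2 and for Muc4 and Tff2 were 0.78 and 0.65, so the positive values rested on the 2 tumors that stood apart. Muc1 and Agr2 had r = -0.17 over 10 tumors and 0.83 over 12. Agr2 had r = 0.62 with Tff3 and r = 0.32 with Tff2 over 10 tumors. These correlations pool the 3 groups of tumors and are given as a description.

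**Figure D4:**
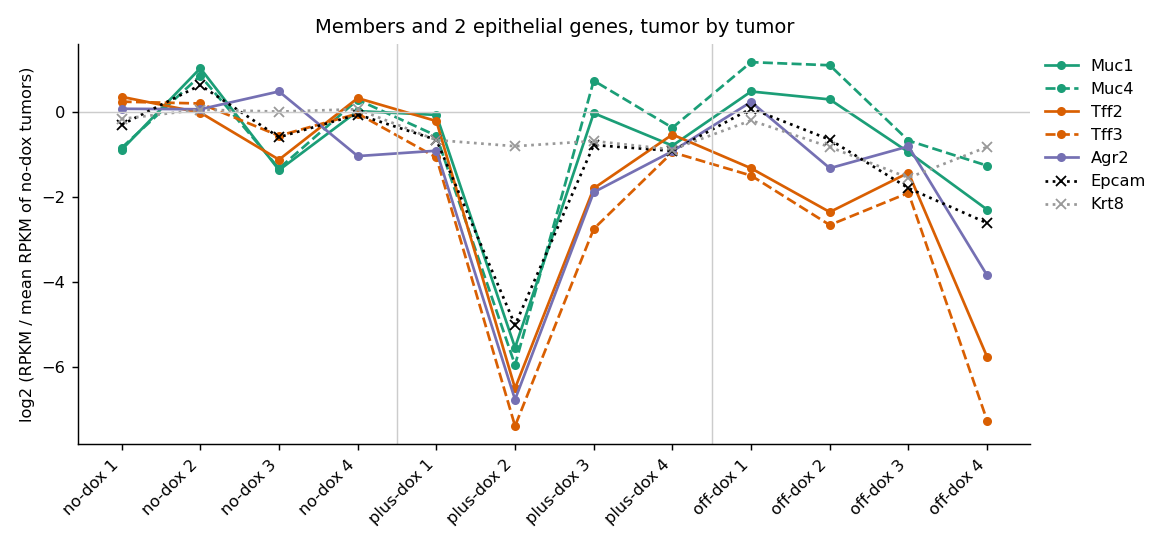
Log2 ratio of the RPKM in each of 12 tumors (horizontal axis) to the no-dox mean (vertical axis), for 5 genes and the epithelial genes Epcam and Krt8. All 5 genes and Epcam drop in plus-dox tumor 2, where Epcam was at 7.76 RPKM, whereas Krt8 at 532 RPKM remains within the range of the tumors that received dox.

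The ratio of Muc4 to Muc1 per tumor, on the RPKM scale, was 0.0431 to 0.0587 in the no-dox group and reached from 0.0588 to 0.0999 in the off-dox group. Their ranges met at their edges without overlapping, and plus-dox tumors spanned both at 0.0347 to 0.0828. The ratio of Tff3 to Tff2 was 0.244 to 0.464 in the no-dox and 0.162 to 0.236 in the plus-dox group, which did not overlap, while off-dox tumors ranged from 0.111 to 0.279. The ratio of Agr2 to Tff2 was 0.253 to 0.385 in plus-dox and 0.631 to 1.55 in off-dox tumors, again without overlap, and 0.159 to 1.25 in no-dox tumors. The ratio of Tff3 to Muc1 was 0.279 to 1.09 in no-dox and 0.0159 to 0.255 in off-dox tumors, without overlap, and 0.0751 to 0.445 in plus-dox tumors. The ratio of Tff2 to Muc1 overlapped between all groups, at 0.764 to 3.74 in no-dox, 0.462 to 1.89 in plus-dox and 0.142 to 1.13 in off-dox tumors. These ratios were chosen after the values were seen and were not tested. The share of all pairs of genes whose ratio separated was not computed.

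**Figure D5:**
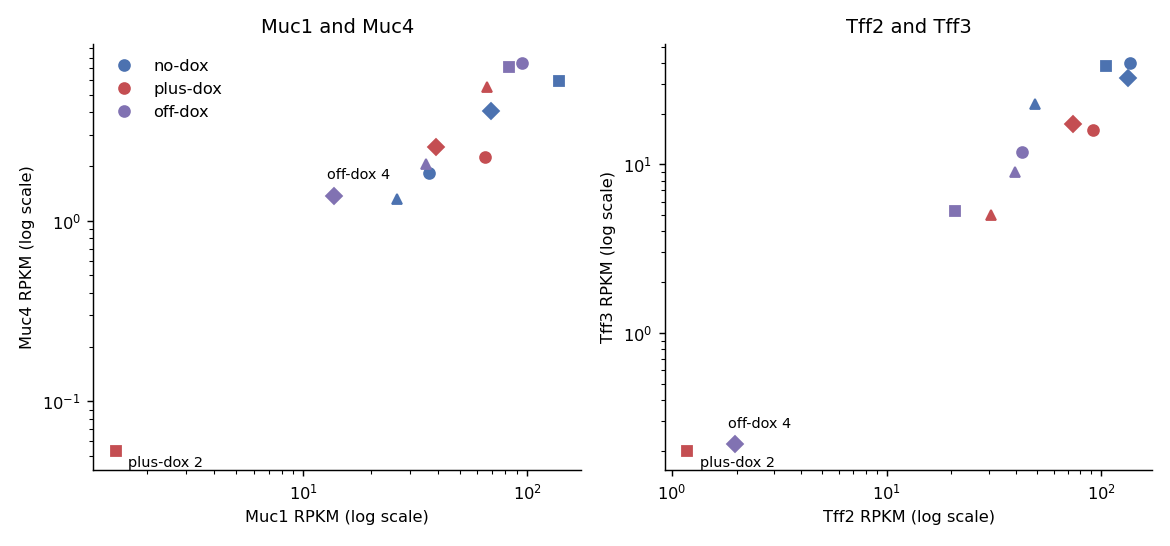
RPKM of Muc4 against Muc1 (left) and Tff3 against Tff2 (right) in 12 tumors, on log axes, coloured by group and with a symbol for each tumor number. Both pairs follow a line over the 10 tumors that did not stand apart (r of log2 CPM 0.89 and 0.91), and plus-dox tumor 2 lies at the lower left of both panels.

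Levels of epithelial markers were also lower in several tumors with low trefoil values. The summed RPKM of the 10 epithelial markers was 2290 to 3054 in no-dox, 1364 to 2013 in plus-dox and 1054 to 2623 in off-dox tumors, and the median log2 fold change of the list was -0.62 in plus-dox and -0.67 in off-dox against no-dox tumors, with 0 of 10 called in each. Of the 10 genes, 3 (Epcam, Krt8 and Krt18) were lower in all plus-dox than in all no-dox tumors, beside 3.46% of all genes. In off-dox tumors 1 of 10, Krt8, was wholly below the no-dox tumors, beside 6.4% of all genes. Relative to Epcam, Tff3 was at 0.0994 to 0.195 in no-dox, 0.0258 to 0.131 in plus-dox and 0.00534 to 0.124 in off-dox tumors, so that the groups overlapped. Tff2 relative to Epcam was at 0.272 to 0.671, 0.152 to 0.578 and 0.0479 to 0.548. Muc4 relative to Epcam was at 0.00791 to 0.0168 in no-dox and 0.0281 to 0.0443 in off-dox tumors, without overlap, and at 0.00686 to 0.0377 in plus-dox tumors. Epcam itself averaged 250 RPKM in no-dox and 134 RPKM in off-dox tumors, while Muc4 RPKM overlapped. Relative to Epcam, Muc1 (0.158 to 0.357 and 0.337 to 0.521) and Agr2 (0.0887 to 0.369 and 0.0744 to 0.345) overlapped between no-dox and off-dox tumors. The share of all genes whose ratio to Epcam separated was not computed.

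Markers of host tissue varied between tumors as well. The summed RPKM of 8 skeletal muscle genes was 7.94 to 155 in no-dox, 126 to 401 in plus-dox and 8.94 to 1111 in off-dox tumors, and that of 8 adipocyte genes was 61.8 to 1129, 57.1 to 717 and 69.8 to 337. Muscle and adipocyte lists had no gene at 0 in all tumors. Between off-dox and no-dox tumors none of the 8 muscle genes was called with all 12 tumors. In the fit without plus-dox tumor 2 and off-dox tumor 4, which called Tff2 and Tff3 lower, 6 of 8 were called higher. That fit called 2.72% of all genes in either direction. With all 12 tumors, 2 of the 7 neutrophil genes tested, Csf3r and Cxcr2, were called higher, beside 1.03% of all genes. Of the 6 epidermal and follicular genes tested, 2 were called lower, the epidermal keratin Krt14 and the hair follicle keratin Krt71, beside 0.307% of all genes. Krt71 was at 13.4 RPKM in no-dox tumor 1 and at most 0.720 in the other 11 tumors. The 7 epidermal and follicular genes with a row summed to 19.7 to 54.5 RPKM in no-dox, 8.95 to 23.8 in plus-dox and 10.9 to 16.01 in off-dox tumors, so that off-dox tumors lay below no-dox tumors. The 10 fibroblast genes summed to 1209 to 2157, 1714 to 3229 and 1402 to 1623 RPKM, again with none at 0. The 8 milk and secretory genes of the mammary gland summed to at most 4.22 RPKM, with Csn1s1 and Csn1s2a at 0, which does not show whether resting gland was present. The part of epithelial, host and counted-read shares in the trefoil result was not tested.

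The 100 bases upstream of the annotated starts of the genes that varied together are printed to show what their promoters hold. The starts are those of GENCODE vM1 on mm9, the sequence is the strand of the gene, and capitals mark matches to a searched motif on either strand.
Muc1, chr3:89032879-89032978, plus strand: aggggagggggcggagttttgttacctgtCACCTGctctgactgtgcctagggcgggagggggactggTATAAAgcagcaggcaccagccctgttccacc
Muc4, chr16:32735872-32735971, plus strand: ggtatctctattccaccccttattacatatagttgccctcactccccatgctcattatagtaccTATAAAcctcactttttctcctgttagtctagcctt
Tff2, chr17:31281228-31281327, minus strand: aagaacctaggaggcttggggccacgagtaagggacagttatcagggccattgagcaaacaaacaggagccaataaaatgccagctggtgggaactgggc
Tff3, chr17:31266592-31266691, minus strand: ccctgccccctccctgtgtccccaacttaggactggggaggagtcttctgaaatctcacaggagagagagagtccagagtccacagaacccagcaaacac

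Muc1 and Muc4 each held TATAAA, the TATA box, starting 32 and 36 bases before the start, and 10.1% of 22365 promoters of 200 bases held it. Muc1 also held the E-box CAGGTG, read on the opposite strand as CACCTG, 71 bases before its start, which 13.7% of promoters held. Of the 200 bases before each start, Tff2, Tff3, Agr2 and Muc6 held none of the 4 motifs searched, which were these, the forkhead motif TGTTTAC (2.1% of promoters) and the GATA motif GATAAG (4.8%). Tff1 held TATAAA at 28 bases, and Muc5ac held TGTTTAC at 114 and CAGGTG at 178 bases before its start. The motifs do not overlap one another. A match describes letters in this window only.

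Other genes with log2 CPM most like those of Tff2, Muc1 and Agr2, the highest 3, were taken from 12689 genes with a mean over 1 RPKM. Most like Tff2 were Pdgfc, a platelet-derived growth factor, with r = 0.99 over 12 tumors and 0.95 over the 10, Rbp2, an intestinal retinol-binding protein, with 0.98 and 0.89, and Mycn, a Myc family factor, with 0.98 and 0.90. Most like Muc1 were Cblc (0.99 and 0.95), Vnn1 (0.99 and 0.95) and Cyp21a1 (0.99 and 0.93). Cblc is an epithelial ubiquitin ligase of the Cbl family and Vnn1 a pantetheinase. Among those most like Agr2 were Reg3b, a secreted C-type lectin made by injured pancreas and gut (0.98 and 0.82), and Phgr1 (0.97 and 0.76). The r over 12 tumors includes the pair that stood apart, which raises it for any gene that was low in both.

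Genes of mucus packaging and secretion, 18 of 20 of which were tested, had none called in any comparison, beside the 0%, 1.34% and 0% of all genes. The median log2 fold change of the list was -0.13 in plus-dox and -0.26 in off-dox against no-dox tumors, beside 0.013 and 0.0072 over all genes. Its highest gene was Dmbt1, a mucin-like scavenger protein that binds trefoil factors, at 822, 1651, 301 and 1953 RPKM in no-dox tumors. It was at 861, 4.44, 254 and 458 RPKM in plus-dox tumors and at 782, 335, 227 and 31.9 RPKM in off-dox tumors. Plus-dox tumor 2 was again the lowest and the groups overlapped for Dmbt1, with log2 fold changes of -1.60 ± 1.11 and -1.77 ± 1.12 against no-dox (edgeR adjusted p = 0.51 and 0.39). The granule fusion gene Vamp8 and Tmed3, a carrier of early secretory vesicles, followed in level, at 189 ± 6.25 and 80.6 ± 9.56 RPKM in no-dox tumors (SD, n = 4).

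The enzymes of mucin O-glycosylation, which add and extend the sugar chains, had 30 of 30 genes tested and none called, with medians of 0.046 and -0.095 against no-dox tumors. Galnt1 and Galnt2, which start the chains, and B3gnt3, which extends them, were the highest, at 64.2 ± 14.6, 25.5 ± 1.34 and 35.8 ± 10.2 RPKM in no-dox tumors (SD, n = 4). Gcnt3, which branches mucin chains, named after its values were seen, was at 13.2 ± 3.29 in no-dox, 4.97 ± 1.93 in plus-dox and 7.19 ± 4.8 RPKM in off-dox tumors (SD, n = 4 each). Its plus-dox values were wholly below the no-dox values, with a log2 fold change of -1.40 ± 0.47 (edgeR adjusted p = 0.33). With Galnt3 and C1galt1, 3 of 30 genes were wholly lower in plus-dox than in no-dox tumors, beside 3.46% of all genes, and 1 of 30, Galntl4, was wholly higher, beside 4.3%.

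Surface genes of gastric-type cells and PanINs had 20 of 20 genes tested and none called, with medians of -0.21 and -0.24 against no-dox tumors. Tspan8, a tetraspanin of gastrointestinal tumors, was the highest, at 385, 417, 378 and 408 RPKM in no-dox tumors. It was at 338, 117, 184 and 248 RPKM in plus-dox and at 329, 229, 184 and 170 RPKM in off-dox tumors, below all no-dox tumors in each. In each comparison Tspan8 was the 1 of 20 genes wholly lower, beside 3.46% of all genes for plus-dox and 6.4% for off-dox. The log2 fold changes of Tspan8 were -0.84 ± 0.27 and -0.78 ± 0.27 (edgeR adjusted p = 0.33 and 0.15). The lectin Lgals4 and the protease Ctse followed, at 264 ± 80.7 and 178 ± 77.9 RPKM in no-dox tumors (SD, n = 4).

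Receptors and partners of trefoil factors and mucins had 10 of 10 genes tested and none called, with medians of -0.076 and -0.13 against no-dox tumors. Msln, the ligand of Muc16 on mesothelial and pancreatic cancer cells, was at 276, 300.0, 319 and 307 RPKM in no-dox tumors. It was at 264, 159, 191 and 229 RPKM in plus-dox and at 252, 263, 150 and 182 RPKM in off-dox tumors, below all no-dox tumors in both groups. Msln was the 1 of 10 genes wholly lower in each comparison, beside 3.46% of all genes for plus-dox and 6.4% for off-dox. The log2 fold changes were -0.51 ± 0.19 and -0.48 ± 0.19 (edgeR adjusted p = 0.33 and 0.19). Ctnnb1, which binds the tail of Muc1, and the lectin Lgals3 were at 350 ± 71.5 and 221 ± 33.4 RPKM in no-dox tumors (SD, n = 4).

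Of 14 other mucins and mucin-like genes, 9 had a row, 7 were tested and none was called, with medians of 0.38 and -0.31 against no-dox tumors. The sialomucins Cd164 and Podxl and the adhesion molecule Mcam were the highest, at 129 ± 15.2, 30.5 ± 5.66 and 17.5 ± 2.09 RPKM in no-dox tumors (SD, n = 4). Muc5b, the neighbour of Muc5ac at 19936 bases, and Muc13, a membrane mucin of the gut, were named after their values were seen. Muc5b was highest in plus-dox tumor 4 at 1.23 RPKM, the tumor that was also highest in Muc5ac, and at most 0.358 in the other 11. Muc13 was at 2.40 and 3.86 RPKM in plus-dox tumors 3 and 4 and at most 0.777 in the other 10.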

How the data were processed

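Polyadenylated RNA of 12 tumors was sequenced by the authors as single-end reads of 50 bases without strand. Per the labels and the methods of the study, reads were aligned to mm9 with TopHat 1.4.1 and quantified over unambiguous exonic spans of a RefSeq annotation condensed to genes, and the processing notes of the submitters also name CASAVA 1.8.2, Bowtie 0.12.8 and bedtools 2.16.2. The deposited tables hold, for each tumor and gene, an expected count from base-wise coverage, not normalized and not always whole, and the RPKM of the authors, which divides by exonic length and total mapped reads. The treatment of multiply matching and duplicate reads is not given in the sources used here.

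Counts were rounded and genes with at least 10 counts over the 12 tumors (17561) were tested with edgeR 4.0.16 (TMM, quasi-likelihood, 1 fit of the 3 groups, no covariate), while the authors used DESeq2, whose limits for a call were kept. DESeq2 1.42.0 and limma-voom (limma 3.58.1) were alternatives, and so were other normalization, filters, sample sets, limits and a block by tumor number. Scripts were tested on simulated data. Log2 CPM used a prior count of 2. Precision rests on 19845923 to 33137609 counted reads per tumor. Python 3.11.15 and R 4.3.3 were used.

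Exons and starts are from GENCODE vM1 and sequences from the NCBIM37 (mm9) genome, and file starts were shifted by 1 to count from 1. The genes and gene lists were chosen with earlier results of these data known. Named are the 9 genes, of each other list the 3 genes with the highest mean RPKM and any gene called, and for each of Tff2, Muc1 and Agr2 the 3 genes most like it, except that 1 gene and 1 allele of the line are not reported here. Other genes were named after their values were seen, as said there or in connection with groups that did not overlap. Marker genes are named where a value is given beside them. Protein sequences were not used here.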

Additional observations from a re-analysis of the deposited data

How the results depend on the processing

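Of 432 fold changes of the 7 genes under alternative settings, 421 kept the direction and the side of the threshold of the 21 reported, 3 were newly called and 8 reversed. Between off-dox and no-dox tumors the count of genes called among the 7 was 0, and it was 1 with limma-voom (Tff3) and 2 without plus-dox replicate 2 and off-dox replicate 4 (Tff3 and Tff2). It was 0 under all the other settings, in all 3 comparisons, also with each tumor left out in turn. With at least 10 counts required in every tumor, Tff3, Muc5ac and Muc6 were not tested, so they could not be called there. Muc4 in plus-dox against no-dox tumors reversed to 0.12 without no-dox replicate 2, 0.10 without plus-dox replicate 2 and 0.098 without both plus-dox replicate 2 and off-dox replicate 4. Muc1 in off-dox against no-dox tumors reversed to 0.11 with limma-voom, 0.37 without no-dox replicate 2, 0.098 without off-dox replicate 4 and 0.10 without the pair, and Muc5ac to 0.042 without no-dox replicate 1. The cause was not tested. With each tumor left out in turn, Tff3 in off-dox against no-dox tumors ranged from -2.77 to -1.92 and Tff2 from -2.33 to -1.61 on the log2 scale, with edgeR adjusted p of 0.10 to 0.36 and 0.12 to 0.42. Over the same refits, Muc4 in plus-dox against no-dox tumors ranged from -1.06 to 0.12, and in off-dox against no-dox tumors Muc1 ranged from -0.58 to 0.37 and Muc5ac from -1.47 to 0.042. In the latter comparison the count over all genes, 235, ran from 0 to 789 with a tumor left out, and was 615 with DESeq2, 396 with moderated fold changes, 641 with limma-voom, 122 without a filter, 365 with at least 10 counts in every tumor, 3 with the 8 tumors of the pair alone, 0 at an adjusted p under 0.05 and 471 without the pair.

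No pairing by tumor number was seen, but the correlations spread too widely to exclude one. Same-numbered tumors had a mean correlation of deviations of -0.09 over 12 pairs (-0.45 to 0.57), 2 of them over 0.1. Over 36 pairs with different numbers the mean was 0.04 (-0.68 to 0.67), with 19 over 0.1. With the replicate block, 0 of the 7 genes were called in each comparison, and 0 of all genes between off-dox and no-dox tumors.

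Muc5ac and Muc6 rest on 2 to 108 and 4 to 29 counts per tumor, which limits what their fold changes can show.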
